A study of Rattus norvegicus with 48 samples.

Results

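Heat shock proteins, their J-protein partners, BAG cochaperones and the chaperonins were followed through 48 arrays of the rat extensor digitorum longus (EDL), a muscle made mostly of fast fibres that lifts the toes. Members are the genes whose symbol starts with Hspa, Hspb, Hsph, Hsp90, Dnaja, Dnajb or Dnajc, together with Hspd1, Hspe1, Cryab, Bag1 to Bag6 and the Cct genes, Hspbap1 excepted. Only probe sets that name a single gene were used, and the brightest stood for a gene with several. This gave 73 genes of 14557, and 63 of them were among the 9558 genes bright enough to be tested. The 10 members that were too dim are Dnaja1-ps4, Dnajb3, Dnajb7, Dnajb8, Dnajc17l1, Dnajc5b, Dnajc5g, Hsp90aa1-ps2, Hsp90ab1-ps7 and Hspa8-ps31, of which the 4 with "-ps" are named as pseudogenes. Hspa1a, Hspa8, Hsp90aa1, Hsp90b1 and Hspd1 have no probe set of their own in the table and were not analysed here. The inducible Hsp70 is therefore seen through Hspa1b, whose near-identical copy Hspa1a may share its probes, so that the value may belong to either gene.

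The rats belonged to the HCR and LCR lines, which usually means selection for a high or a low capacity to run; the labels hold just these letters. Each line was sampled young and old, and each age at rest and exhausted, which makes 8 groups of 6 arrays. Ages in months, the delay from exhaustion to sampling and batches are not in the labels, and no group has a labelled genetic alteration or drug. Titles carry different animal numbers, with 2 of them in that of young HCR rest replicate 6. Values are log2 units of array intensity, so that a difference of 1 is a doubling.

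Chaperones bind unfolded stretches of proteins and help them fold, refold or reach degradation. Hsp70 proteins do this in cycles of ATP hydrolysis that J proteins (Dnaj) start and that nucleotide exchange factors (the Hsp110 and BAG proteins) end. Small heat shock proteins hold unfolding proteins without using ATP, and in muscle several of them sit at the Z-disc, where BAG3 and HSPB8 work together in the chaperone-assisted clearance of damaged filamin. Heat and exercise are known to activate HSF1, which binds inverted repeats of the letters nGAAn in the promoters of inducible chaperone genes.

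The promoters of several members hold such repeats. RefSeq promoter windows (assembly GRCr8, 250 bases before to 50 after the start of the gene) were found for 56 members, and 17 members, Hspa1b, Dnajb4 and Cryab among them, had none. The 3-unit repeat GAANNTTCNNGAA, or its other strand TTCNNGAANNTTC, lay in 4 members (7.14%), Hsph1, Dnaja1, Hspe1 and Cct4, against 0.794% of 27457 genes with a window. A 2-unit repeat, GAANNTTC or TTCNNGAA, each of which reads the same on both strands and is contained in the longer one, lay in 17 members (30.4%) against 16.7% of all genes. Parts of the windows of 6 members are shown because 5 of them belong to genes that rose after the run and the sixth, Hspe1, carries 2 overlapping long repeats. Dnaja1 and Dnajb1 each hold a further 2-unit repeat outside the part shown. All are given 5′ to 3′ on the gene's strand, with the GAA and TTC units of the repeats in capitals.
Hsph1 (chr12:10427248-10427367, plus strand, ends at the start of the gene): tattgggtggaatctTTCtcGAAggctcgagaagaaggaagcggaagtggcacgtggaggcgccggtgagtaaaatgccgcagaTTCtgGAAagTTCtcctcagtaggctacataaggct
Dnaja1 (chr5:60638334-60638428, plus strand, runs 25 bases past the start): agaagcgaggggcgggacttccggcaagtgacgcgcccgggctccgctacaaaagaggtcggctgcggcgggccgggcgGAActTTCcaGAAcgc
Hspe1 (chr9:64084207-64084326, plus strand, ends at the start): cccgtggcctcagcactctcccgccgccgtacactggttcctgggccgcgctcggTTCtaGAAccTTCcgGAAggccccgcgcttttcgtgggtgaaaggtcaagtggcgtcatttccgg
Dnajb1 (chr19:41431142-41431261, minus strand, ends at the start): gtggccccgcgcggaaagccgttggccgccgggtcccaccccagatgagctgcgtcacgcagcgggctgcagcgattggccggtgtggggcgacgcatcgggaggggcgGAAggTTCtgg
Hspb1 (chr12:26432302-26432441, minus strand, ends at the start): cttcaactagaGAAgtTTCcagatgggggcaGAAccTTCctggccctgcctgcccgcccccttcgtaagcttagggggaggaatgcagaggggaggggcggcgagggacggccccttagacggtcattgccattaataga
Bag3 (chr1:192533320-192533459, plus strand, ends at the start): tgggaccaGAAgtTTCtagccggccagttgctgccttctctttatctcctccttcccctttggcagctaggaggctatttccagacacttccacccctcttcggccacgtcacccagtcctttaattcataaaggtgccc
A match of letters is no measured binding site. Among the 9 members that rose after the run on average, 7 have a window, and 5 of these hold a 2-unit and 2 a 3-unit repeat. Among 44 tested members with a window that were not called higher, the counts are 11 and 2.

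Array medians lay between 4.47 and 4.59, and arrays of a group correlated at 0.963 or more over the genes. Fast fibre markers averaged between 12.9 and 13.1 on every array of this fast muscle. For 3 arrays, old LCR rest replicate 2 and the first replicates of exhausted young HCR and exhausted old HCR, the lower quartile was raised and the array weight low, and results that change without them are named. Correlations were not recomputed with these 3 arrays left out together. In whole muscle, fewer cells of a type and less RNA per cell cannot be told apart.

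To see how the chaperone genes respond to a single exhausting run, the 24 arrays of exhausted rats were compared with the 24 of rested rats, as the mean of the 4 combinations of line and age (strata). A small group of stress-inducible chaperones rose. Dnajb1, the J protein that drives the heat-induced Hsp70, rose by 0.78 ± 0.14 (SE; 1.71-fold, limma adjusted p = 0.000101) and was above the mean of its rest group in 22 of 24 arrays. Hspa1b, the inducible Hsp70 itself, rose by 0.59 ± 0.12 (adjusted p = 0.000591, 19 of 24 arrays), and Dnaja1, an Hsp70 partner that is also inducible, by 0.49 ± 0.08 (adjusted p = 3.95e-05, 18 of 24). In all, 9 members passed the threshold upward and 4 downward, 20.6% of the 63, against 16.1% of all genes (6.52% higher and 9.61% lower). The members' median change was -0.02 and that of all genes -0.03. With quantile normalization on top the split over all genes was 761 higher and 790 lower in place of 623 and 919, and with median centring it was 674 and 600. The members' own split was then 9 higher with 6 lower, and 9 with 3.

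The other members that rose were Dnajb4, a J protein abundant in striated muscle (0.29, 20 of 24 arrays), Bag3 (0.26, 20 of 24), the small heat shock protein Hspb1 (0.22, 15 of 24), Hsph1, the inducible Hsp110 (0.22, 15 of 24), Dnajb5 (0.19, 23 of 24) and Dnajb9, a J protein of the endoplasmic reticulum (0.15, 17 of 24). Hspb1 stood at the threshold (adjusted p = 0.0499), and its call was lost without any of 31 of the 48 arrays. The 4 members that fell did so by small amounts. Dnajb14, an endoplasmic reticulum J protein, fell by 0.16, Dnajc10, a reductase of the same compartment, by 0.13, Cct8, a subunit of the cytosolic chaperonin, by 0.13 and Hspa9, the mitochondrial Hsp70 mortalin, by 0.11. Hspa9 was lower in 23 of 24 arrays, whereas the call of Cct8 (adjusted p = 0.0479) was lost without any of 30 arrays. Over the same arrays 8 of 9 liver markers were lower and 6 of 9 macrophage markers higher after the run. Their part in these results was not tested.

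**Figure D1:**
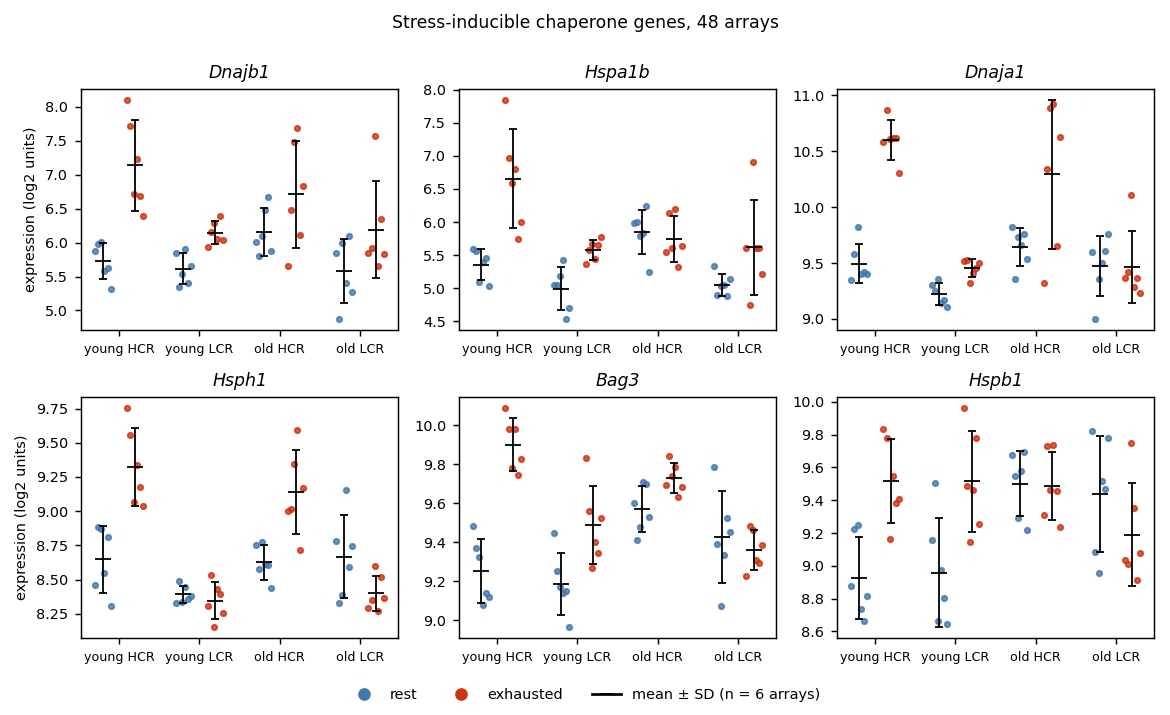
Expression of 6 inducible chaperone genes in log2 units on each of 48 arrays, by line and age, at rest (blue) and exhausted (red); black bars are the mean ± SD of 6 arrays. In young HCR all 6 exhausted arrays lie above all 6 rest arrays for Dnajb1, Hspa1b, Dnaja1, Hsph1 and Bag3, whereas Hsph1 differs by -0.05 and -0.27 in young and old LCR. The genes shown are among the members that rose in these arrays, and the share of all genes without overlap was not counted.

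Young HCR rats had the most calls: 9 members rose and 1 fell, 15.9% of the 63 against 8.68% of all genes (4.82% higher and 3.86% lower). Dnajb1 ran from 5.31 to 6.01 at rest (median 5.75) and from 6.39 to 8.11 after the run (median 6.98). These ranges do not overlap, and the change was 1.41 ± 0.28 (2.66-fold, adjusted p = 0.000567). Hspa1b ran from 5.03 to 5.60 at rest (median 5.43) and from 5.74 to 7.85 after the run (median 6.70), a 2.46-fold rise. Both genes were highest in replicate 1, which is 1 of the 3 arrays that stand apart. Dnaja1 moved from between 9.35 and 9.82 (median 9.41) to between 10.31 and 10.87 (median 10.62), a 2.15-fold rise (adjusted p = 8.19e-06). Its 6 exhausted values were tightly grouped, with an SD of 0.18.

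Hsph1, which exchanges nucleotide on Hsp70, moved in young HCR from 8.31 to 8.89 (median 8.68) to 9.04 to 9.76 (median 9.26), a rise of 0.68 ± 0.12 (1.60-fold). Bag3 moved from 9.08 to 9.48 (median 9.23) to 9.75 to 10.09 (median 9.90), and had the smallest p of the members (0.65 ± 0.09, adjusted p = 1.82e-06). Neither gene's groups overlap. Hspb1 ran from 8.66 to 9.25 at rest and from 9.16 to 9.83 after the run and rose by 0.59 with overlapping groups. Dnajb4 rose by 0.51, Dnajb5 by 0.27 and Dnajb9 by 0.25, the last with overlapping groups. Hspb3, a small heat shock protein of muscle, fell by 0.34 (adjusted p = 0.0225), from 8.16 to 8.60 at rest to 7.77 to 8.15 afterwards, ranges that just fail to meet. The call of Hspb3 was lost without the 3 arrays that stand apart, and also without exhausted replicate 1, rest replicate 1 or rest replicate 6 (adjusted p between 0.0633 and 0.0781). That of Dnajb4 was lost without exhausted replicate 2 or 4 or rest replicate 3 or 5 (adjusted p up to 0.0745), and that of Dnajb9 without any of 7 arrays (up to 0.112). In the same comparison 3 of 7 tendon markers were higher, with array means of 6.62 to 7.72 at rest and 7.73 to 8.49 after the run. Their part in the result was not tested.

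Young LCR rats showed no member past the threshold, with 0.942% of all genes called (0.795% higher and 0.146% lower). Hspb7, a small heat shock protein of striated muscle, came closest, with 8.21 to 9.80 at rest (median 9.22) and 9.39 to 11.44 after the run (median 9.92). Its difference was 0.95 ± 0.26 (adjusted p = 0.0661), with overlapping groups and all 6 exhausted arrays above the rest mean. Hspb1 differed by 0.56, nearly as in young HCR, at an adjusted p of 0.0796. Dnaja1 ran from 9.11 to 9.36 at rest (median 9.21) and from 9.32 to 9.52 after the run (median 9.48), a difference of 0.23 with a 95% confidence interval of -0.11 to 0.57. Hsph1 ran from 8.33 to 8.49 and from 8.15 to 8.53, a difference of -0.05 (interval -0.30 to 0.21). Between 1 and 2 members passed without exhausted replicate 3 or 6, rest replicate 1 or 2 or old LCR rest replicate 4.

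In old HCR rats 3 members rose and none fell, against 3.15% of all genes (1.44% higher and 1.71% lower). Dnaja1 ran from 9.36 to 9.82 at rest (median 9.70) and from 9.33 to 10.92 after the run (median 10.49), a rise of 0.65 (adjusted p = 0.0209). Its exhausted arrays spread widely: replicates 3, 4 and 6 lay at 10.63 or above, replicate 2 at 10.34, and replicates 1 and 5 at 9.33 and 9.66, within the rest range. Hsph1 rose by 0.51 (adjusted p = 0.0111), from 8.44 to 8.78 (median 8.61) to 8.71 to 9.60 (median 9.09). Dnajc25, a J protein with a transmembrane segment, rose by 0.38 (adjusted p = 0.0398), from 7.58 to 8.23 (median 8.0) to 7.97 to 8.62 (median 8.34). All 3 had overlapping groups, and Dnajc25 was not called without any of 7 arrays or without the 3 that stand apart. Only 1 member passed without exhausted replicate 3, 4 or 6 or without rest replicate 6, and none in a fit of the 2 groups alone. Hspa1b was at -0.11 (interval -0.60 to 0.38) in these rats, from 5.25 to 6.24 at rest (median 5.91) and from 5.33 to 6.20 after the run (median 5.63).

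In old LCR rats 2 members fell and none rose, against 2.13% of all genes (0.732% higher and 1.4% lower). Hspb8, the partner of BAG3, fell by 0.54 ± 0.15 (adjusted p = 0.0446), from 9.63 to 10.89 at rest (median 10.59) to 9.79 to 10.12 after the run (median 9.91). Cct2, a chaperonin subunit, fell by 0.28 (adjusted p = 0.02), from 9.99 to 10.46 (median 10.29) to 9.74 to 10.07 (median 9.96). For both genes the groups overlap, through rest replicate 3 for Hspb8, whereas the other 5 rest arrays lie at 10.38 or above. Both calls were lost in a fit of the 2 groups alone (adjusted p = 0.249 for Hspb8 and 0.303 for Cct2), and that of Hspb8 also with a looser filter on dim genes or none (adjusted p = 0.0647 and 0.0731). The call of Hspb8 was lost without any of 10 arrays and that of Cct2 without any of 5. No member passed without exhausted replicate 3 or 6 or without rest replicate 1, 5 or 6, and 1 passed without exhausted replicate 1, 2 or 5, rest replicate 4 or young LCR rest replicate 3. When rest replicate 2, an array that stands apart, was left out, 5 members fell. Dnajb1 was at 0.61 (interval 0.04 to 1.18, adjusted p = 0.292), with 1 exhausted array, replicate 3, at 7.57 and the other 5 between 5.65 and 6.35.

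**Figure D2:**
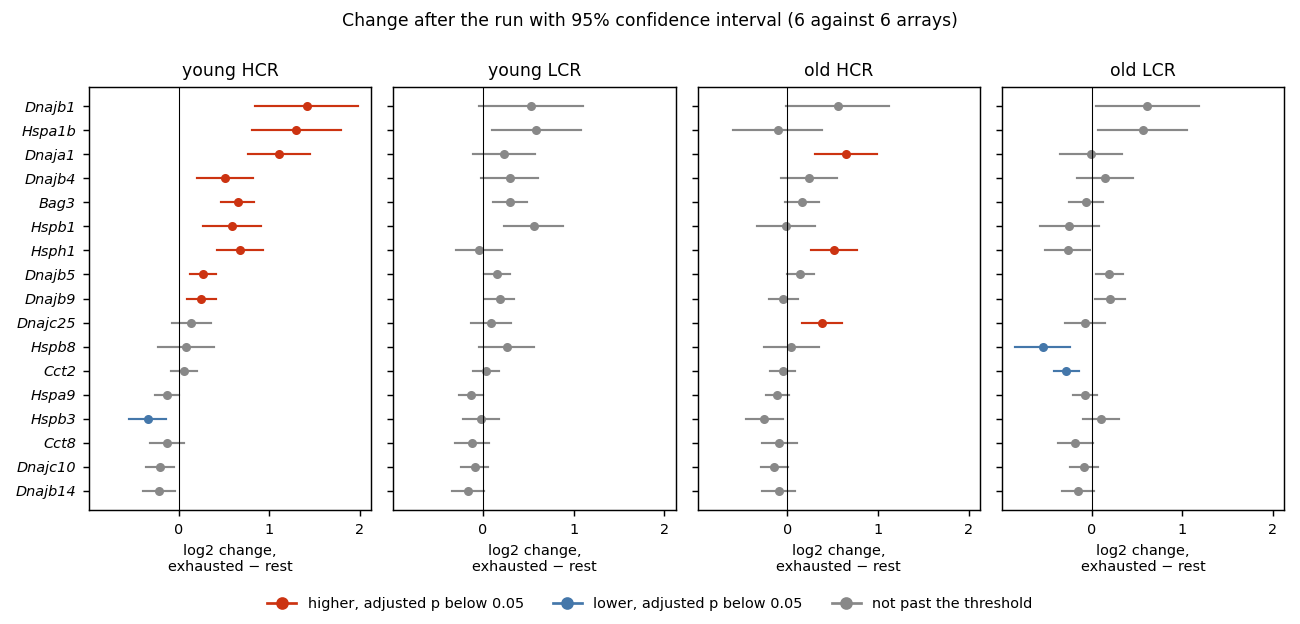
Log2 change after the run (exhausted minus rest, 6 against 6 arrays) with its 95% confidence interval in each stratum of line and age, for the 17 members past the threshold in at least 1 of the 5 exercise comparisons; red is higher, blue lower and grey not past the threshold. Of the members that rose in young HCR, which were chosen for those values, Hspb1 is at 0.56 in young LCR and at -0.01 and -0.25 in old HCR and LCR.

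Of the 63 members 15 had one sign in all 4 strata, 4 higher and 11 lower. Over all genes 26.4% had one sign, and the share among the members, 15 of 63, is close to that. Of the 13 members called on average, 7 had the same sign in all strata. Calls on the average favour genes with one sign, and that share among all genes called on average was not counted. Dnajb1 (1.41, 0.53, 0.55 and 0.61 in young HCR, young LCR, old HCR and old LCR), Dnajb4 (0.51, 0.29, 0.23 and 0.14) and Dnajb5 (0.27, 0.15, 0.14 and 0.19) were positive throughout.

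The lines were then compared in their response, as the change of HCR minus that of LCR. Hsph1 and Dnaja1 rose more in HCR than in LCR, and they were the 2 members past the threshold, against 2.1% of all genes (1.07% higher in HCR and 1.04% lower). The difference was 0.75 ± 0.12 for Hsph1 (adjusted p = 0.000157) and 0.76 ± 0.17 for Dnaja1 (adjusted p = 0.00641). Hsph1 changed by 0.68 and 0.51 in young and old HCR and by -0.05 and -0.27 in young and old LCR. Dnaja1 changed by 1.11 and 0.65 in HCR and by 0.23 and -0.01 in LCR. Bag3 had a difference of 0.29 (interval 0.10 to 0.47, adjusted p = 0.0915) and Bag2 one of 0.30 (interval 0.08 to 0.53, adjusted p = 0.173). The test called 4 members in place of 2 with array weights or without old LCR rest replicate 3. Within old rats Hsph1 alone passed, with a difference of 0.78 (adjusted p = 0.0155), against 1.59% of all genes (0.816% higher and 0.774% lower). That call was lost in a fit of the 4 groups of old rats alone (adjusted p = 0.0672), whereas 2 members passed without old HCR exhausted replicate 1 and 3 without old LCR rest replicate 3. Within young rats Hsph1 differed by 0.72 (adjusted p = 0.0504) and no member passed, against 0.356% of all genes (0.272% higher and 0.0837% lower). With any of 12 arrays left out, 1 member passed. Dnaja1 differed by 0.87 in young (adjusted p = 0.111) and 0.66 in old rats (adjusted p = 0.155). Dnajb1 differed between lines by 0.41, with an interval of -0.16 to 0.98, and Hspa1b by 0.02, with an interval of -0.47 to 0.51. The value of Hspa1b is a mean over unlike ages. Old rats changed by -0.11 in HCR and by 0.56 in LCR, whereas young LCR rats changed by 0.59, less than young HCR rats.

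**Figure D3:**
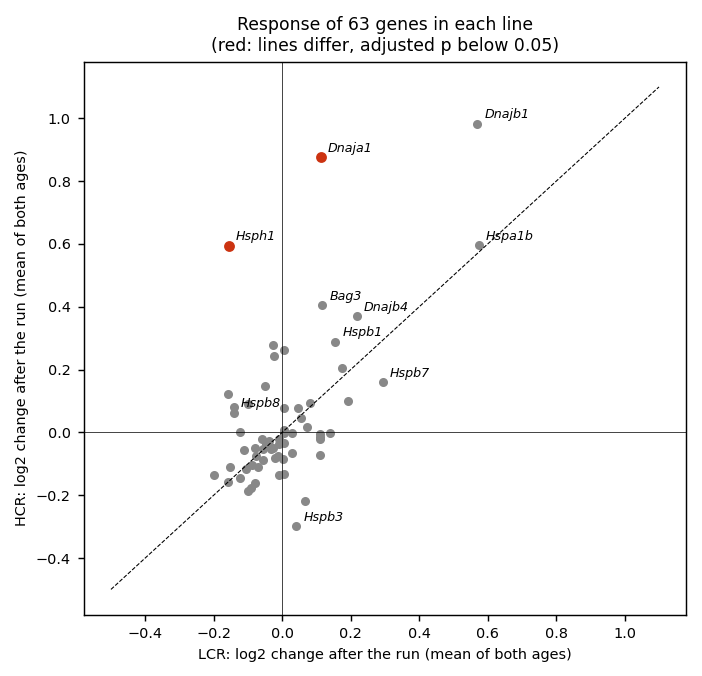
Log2 change after the run in HCR against that in LCR, each the mean of young and old rats, for the 63 tested members; the dashed line marks equal change. Hsph1 and Dnaja1, in red, lie above the line by 0.75 and 0.76. Hspa1b lies on it as a mean of ages that differ, with -0.11 in old HCR and 0.56 in old LCR.

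The response of Bag3 and Hspb1 differed between young and old rats. They were the 2 members called in this interaction, in which 0.251% of all genes passed (0.0209% higher and 0.23% lower). The change of Bag3 was lower in old than in young rats by 0.43 ± 0.09 on the log2 scale, a difference of -0.43 (adjusted p = 0.024). In young rats it was 0.65 in HCR and 0.30 in LCR, and in old rats 0.16 and -0.07. For Hspb1 the difference was -0.70 ± 0.16 (adjusted p = 0.0347), with 0.59 and 0.56 in young HCR and LCR and -0.01 and -0.25 in old HCR and LCR. Hspb7 had the larger difference, -1.02, with an adjusted p of 0.0706, and Hspa1b differed by -0.72 (adjusted p = 0.218). The call of Hspb1 was lost without any of 20 arrays and under both looser filters on dim genes, that of Bag3 under none of these. Without old LCR rest replicate 3 the test called 4 members in place of 2. Rested old rats were higher than rested young rats in Bag3 (by 0.28), Hspb1 (by 0.53) and Hspb7 (by 0.60). These differences use the same rest arrays as the interaction and are not independent of it. Hspb1 at rest had medians of 8.85 and 8.89 in young HCR and LCR and of 9.56 and 9.49 in old HCR and LCR.

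The families were also counted one by one, against 6.52% of all genes higher and 9.61% lower after the run. Among 7 tested chaperonin (CCT) subunits, which form the ring that folds actin and tubulin, Cct8 was the single call, and changes ran from -0.13 to 0.01. Among 20 class C J proteins, a mixed group with many compartments, Dnajc10 was the single call, and changes ran from -0.14 to 0.13. Of 8 Hsp70 members Hspa1b rose and Hspa9 fell, and Hspa5, the Hsp70 of the endoplasmic reticulum known as BiP, was at -0.00 with an interval of -0.09 to 0.08. Of 8 small heat shock proteins Hspb1 alone passed, and Cryab (alpha B-crystallin) was at -0.04 and Hspb6 at -0.08. Hsp90ab1, the constitutive cytosolic Hsp90, was at 0.09 (adjusted p = 0.125), and Hspe1, the mitochondrial cochaperonin, at 0.05 (adjusted p = 0.469). Of 7 class B J proteins 4 rose and 1 fell. A set listed as heat-inducible had 14 tested members, namely Hspa1b, Hspa2, Hsp90ab1, Hsph1, Hspa4, Hspa4l, Dnaja1, Dnajb1, Dnajb4, Hspb1, Hspb8, Cryab, Hspe1 and Bag3, and 7 of them rose while none fell. The set takes in the constitutive Hsp90ab1, and it was chosen with earlier results of these data known. In the endoplasmic reticulum set 1 of 8 rose and 1 fell, and in the mitochondrial set 1 of 5 fell. No test of the difference between these sets was made.

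Genes that act with the chaperones but lie outside these families were read from lists. Of 20 tested heat shock factors and cochaperones 3 rose and 2 fell on average, where 6.52% of all genes rose and 9.61% fell: Fkbp5, an Hsp90 cochaperone and glucocorticoid target, rose by 0.53, Ptges3 (p23) by 0.18 and Hsf1 itself by 0.14, whereas Ppid fell by 0.16 and Tcp1, the first chaperonin subunit, by 0.11. In young HCR, where 4.82% of all genes rose, the same list had 3 members higher, Fkbp5 at 0.76, Ptges3 at 0.37 and Hsf1 at 0.34. The unfolded protein response of the endoplasmic reticulum had 1 of 14 higher (Creld2, 0.19) and 1 lower (Eif2ak3, which encodes PERK, -0.19). Mitochondrial chaperones and proteases had 1 of 15 higher (Pam16, 0.19) and 2 lower (Htra2, -0.20, and Grpel2, -0.17), and prefoldin had 1 of 4 higher (Pfdn1, 0.14).

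At rest, several chaperone genes were higher in HCR than in LCR muscle, with a share of calls close to that of all genes. Averaged over both ages 10 members were higher in HCR and none lower, 15.9% of 63 against 14.9% of all genes (12.9% higher and 2.01% lower). Over all genes the split was likewise one-sided, with 1230 higher and 192 lower, and 54 of 63 members were positive where 66.8% of all genes were. Hspa1b was higher by 0.58 ± 0.17 (1.5-fold, adjusted p = 0.0169), with all 12 HCR arrays above the mean of their LCR counterparts. Hspa4l, an Hsp110 protein, was higher by 0.38, Hspa12b, a distant Hsp70 relative of the endothelium, by 0.33, Dnaja4 by 0.33 and Dnajb9 by 0.29. Hspb3 (0.24), Dnajc9 (0.22), Dnajc15 (0.22), the synaptic vesicle protein Dnajc5 (0.20) and Hspa9 (0.17) completed the calls. With quantile normalization on top 4 members were higher and 1 lower, and the split over all genes was 578 and 316. The endothelial list, in which 5 of 8 genes were higher in HCR, and the slow fibre list, with 5 of 8 higher and a median of 1.12, moved in the same direction. The slow fibre markers averaged 9.68 to 10.20 over the arrays of young HCR and 8.39 to 9.80 in young LCR, 8.54 to 10.42 in old HCR and 7.02 to 9.49 in old LCR. Their part in the result was not tested.

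Within each age the calls differed in number. Among young rats no member passed, against 1.52% of all genes (1.15% higher and 0.366% lower). Hspa4, an Hsp110 protein, was higher by 0.22 (adjusted p = 0.0859) and Hspa9 by 0.20 (adjusted p = 0.104), each with groups that did not overlap. Among old rats 10 members were higher in HCR and 2 lower, against 12.3% of all genes (10.3% higher and 1.98% lower). Dnajb9 ran from 8.74 to 9.04 in old HCR (median 8.95) and from 8.35 to 8.58 in old LCR (median 8.44), a difference of 0.45 (adjusted p = 0.000312) with no overlap. Dnaja4 differed by 0.43 in the same way, with 8.55 to 8.76 against 7.98 to 8.41. Hspa1b ran from 5.25 to 6.24 in old HCR (median 5.91) and from 4.88 to 5.33 in old LCR (median 5.04), a difference of 0.79 with 1 old HCR array, replicate 6, inside the LCR range. Its call was lost without old HCR rest replicate 5 or old LCR rest replicate 2 or 5 (adjusted p up to 0.0601). Hspb8 and Cct2 were lower in old HCR, by 0.47 and 0.22 on the log2 scale: their differences were -0.47 and -0.22. Both of these calls were lost in a fit of the 2 groups alone (adjusted p = 0.13 and 0.189) and with no filter on dim genes (0.0534 and 0.059). That of Hspb8 was also lost without any of 8 arrays, and that of Cct2 without any of 7 and with median centring (0.0601). The old LCR rest arrays behind both differences also enter the fall of these genes after the run and their age difference within LCR. The 3 comparisons are therefore not independent. The count of 12 became 7 without old HCR rest replicate 1 or old LCR rest replicate 6, 6 without old LCR rest replicate 2 or 5, 7 without the 3 arrays that stand apart and 5 under quantile normalization. No test of the difference between young and old in this comparison was made.

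After the run 13 members were higher in HCR than in LCR and 1 lower, 22.2% against 12.1% of all genes (9.18% higher and 2.93% lower). In numbers these were 877 and 280 genes, or 700 and 460 with quantile normalization on top. Dnaja1 was higher by 0.99 ± 0.12 (adjusted p = 4.16e-08) and Hsph1 by 0.86 ± 0.09 (adjusted p = 1.03e-09), and all 12 HCR arrays lay above the mean of their LCR counterparts for Hsph1 and 11 of 12 for Dnaja1. Dnajb1 was higher by 0.76, Hspa1b by 0.60, Bag3 by 0.39, Bag2 by 0.35 and Hspa12b by 0.31. Dnajc25, Dnaja4, Hspe1, Hspa5, Dnajb9 and Hspa9 were higher by between 0.16 and 0.27. Hspa2, best known from the testis, was lower in HCR (-0.42, adjusted p = 0.0233). These values share their exhausted arrays with the comparisons above. Of the 20 heat shock factors and outside cochaperones 7 were higher in HCR, against 9.18% of all genes, led by Fkbp5 at 1.03, Stip1, the adaptor between Hsp70 and Hsp90, at 0.33, Chordc1 at 0.25 and Hsf1 at 0.24. At rest Fkbp5 was already higher by 0.91 and Fkbp4 by 0.30. Among 15 mitochondrial chaperones and proteases 8 were higher in HCR at rest, where 12.9% of all genes were, with Lonp1 at 0.34, Timm44 at 0.32, Afg3l2 at 0.26 and Atf5 at 0.26.

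**Figure D4:**
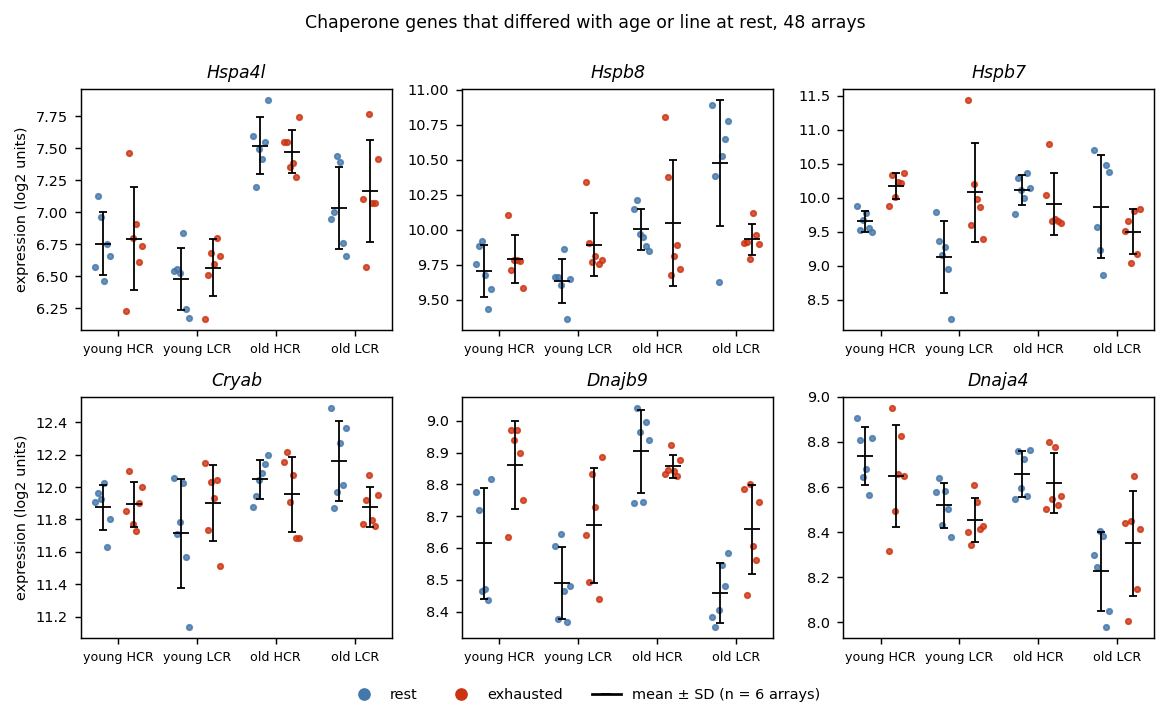
Expression in log2 units of 6 members that differed with age or line, on each of 48 arrays at rest (blue) and exhausted (red); black bars are the mean ± SD of 6 arrays. Hspa4l is higher in old than in young rats of each line, Hspb8 is high and scattered in old LCR at rest, and Dnajb9 and Dnaja4 separate old HCR from old LCR at rest.

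At rest 4 of the 8 small heat shock proteins and BAG3 were higher in old than in young rats. Averaged over the lines 8 members were higher in old rats and 2 lower, 15.9% against 13.8% of all genes (5.5% higher and 8.28% lower). The 4 small heat shock proteins that passed were Hspb7, higher by 0.60, Hspb8, by 0.57, Hspb1, by 0.53, and Cryab, by 0.31, the family's median being 0.27 and that of all genes -0.01. The other 4 did not pass, with Hspb9 at 0.24, Hspb2 at 0.05, Hspb3 at -0.01 and Hspb6 at -0.08. The largest difference was that of Hspa4l, at 0.66 ± 0.12 (1.58-fold, adjusted p = 7.67e-05), with all 12 old arrays above the young mean of their line. Cct6a was higher by 0.36, Bag3 by 0.28 and Bag1, an exchange factor of Hsp70, by 0.24. Dnajc10 was lower (-0.21), as was Hspa5 (-0.18, adjusted p = 0.041), whose call was lost without any of 14 arrays. The call of Hspb7 was lost without old LCR rest replicate 1 or 5 or young LCR rest replicate 6 (adjusted p up to 0.0563).

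Hspa4l was higher in old rats after the run as well. At rest it ran from 6.46 to 7.12 in young HCR (median 6.70) and from 7.19 to 7.88 in old HCR (median 7.52), without overlap. In LCR it ran from 6.17 to 6.84 (median 6.53) and from 6.66 to 7.44 (median 6.97). After the run the old rats were higher by 0.64 (adjusted p = 0.000119), and 3 members were higher and 1 lower in old rats, against 10.7% of all genes (2.58% higher and 8.16% lower). The others were Dnajc17 (0.39), Cct6a (0.27) and Dnajc10 (-0.17). Cct6a was not called without any of 5 arrays (adjusted p up to 0.061), and Dnajc10 not without old HCR exhausted replicate 1 (adjusted p = 0.0599). None of the small heat shock proteins passed in exhausted rats.

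Within HCR 5 members were higher with age at rest and 1 lower, against 3.38% of all genes (1.73% higher and 1.65% lower): Hspa4l at 0.77, Hspb1 at 0.57, Bag3 at 0.32, Dnajb9 at 0.29, Bag1 at 0.27 and Dnajc10 at -0.27. That count of 6 fell to 1 without old HCR rest replicate 2 or young HCR rest replicate 4 or 5, and to 2 without old HCR rest replicate 1 or 5. It was also 1 with a looser filter on dim genes or none, and 3 in a fit of the 2 groups alone. Within LCR 6 were higher and 1 lower, against 9.01% of all genes (2.86% higher and 6.15% lower): Hspb8 at 0.84, Hspa4l at 0.55, Hspb1 at 0.48, Cryab at 0.45, Cct6a at 0.41, Cct2 at 0.22 and Dnaja4 at -0.29. That count of 7 was 2 without young LCR rest replicate 6, 3 without replicate 4, and 4 without replicate 3 or without old LCR rest replicate 5 or 6. It was 1 in a fit of the 2 groups alone and 4 with a looser filter on dim genes or none. The call of Hspb1 in LCR was lost without any of 26 arrays. Those of Hspb8 and Cct2 use the same old LCR rest arrays as their fall after the run and their line difference in old rats. Cryab in LCR ran from 11.13 to 12.06 when young (median 11.75) and from 11.87 to 12.49 when old (median 12.14). The lowest of these is young LCR rest replicate 6, without which Cryab differed by 0.33 (adjusted p = 0.0593).

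Resting old LCR muscle differed from the other groups in a further list. Genes of denervation and of the neuromuscular junction (9 tested, among them the acetylcholine receptor subunits and myogenin) averaged 7.25 to 9.07 over the old LCR rest arrays, 6.86 to 7.24 in old HCR at rest and 6.64 to 7.58 in exhausted old LCR. In the age comparison within LCR 7 of the 9 were higher, against 2.86% of all genes. After the run in old LCR 4 were lower, against 1.4% of all genes. Both counts use the old LCR rest arrays. Hspb8 was high on the arrays on which the list was high. In old LCR rest replicates 1 to 6 the list averaged 8.95, 8.08, 7.25, 7.39, 9.07 and 8.62, and Hspb8 stood at 10.89, 10.38, 9.63, 10.53, 10.65 and 10.77. Old HCR exhausted replicate 1, with a list mean of 8.52, had Hspb8 at 10.80, and young LCR exhausted replicate 1, with 8.06, had Hspb8 at 10.34, each the highest of its group. Array weights were low, at 0.36 on this old HCR array, 0.55 on the young LCR array and 0.32 on replicate 2 of resting old LCR. The first and last of these are among the 3 arrays that stand apart, and no r was computed without those 3. Across the 48 arrays, as deviations from the group means, Hspb8 and the list correlated at r = 0.75 (Spearman rho 0.59, permutation test within groups, adjusted p = 0.00024 and 0.00064). Without the 2 arrays most extreme in Hspb8, r was 0.62, and arrays extreme in the list alone were kept. Hspb7 and the list gave r = 0.74 (rho 0.82) and Bag3 r = 0.48 (rho 0.37), whereas Hspb1 gave r = 0.29 (adjusted p = 0.0907). These 4 pairs were chosen after the values were seen and are adjusted together with 12 others. How far the denervation list accounts for the fall of Hspb8 in old LCR was not tested.

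**Figure D5:**
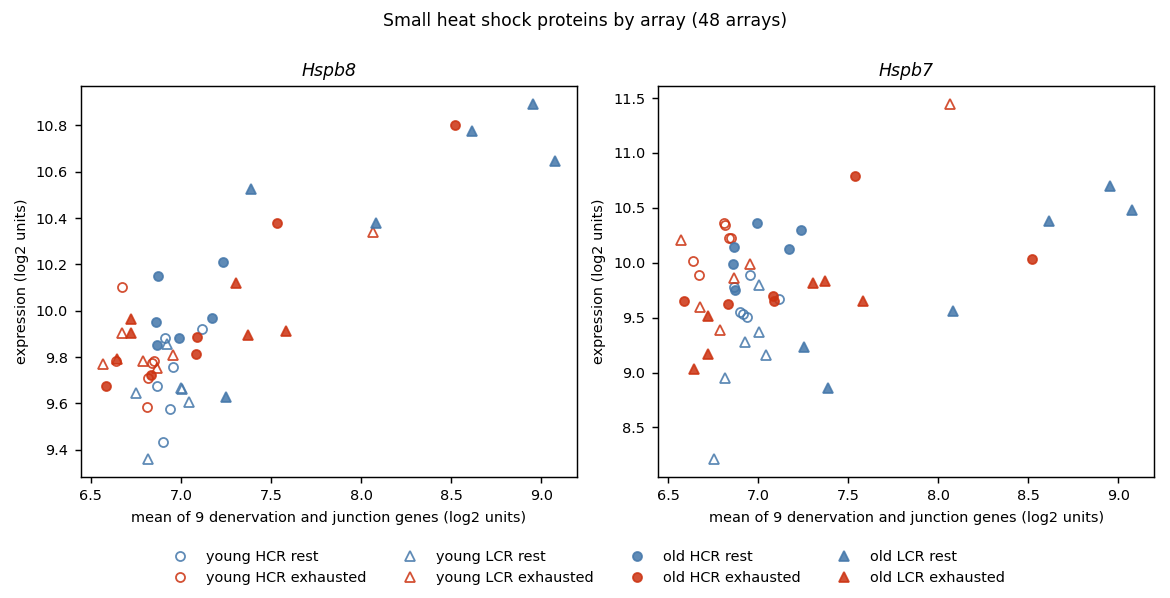
Hspb8 (left) and Hspb7 (right) in log2 units against the mean of 9 denervation and neuromuscular junction genes on each of 48 arrays; circles are HCR, triangles LCR, open symbols young, filled symbols old, blue rest and red exhausted. The arrays with a list mean above 8, namely 4 of old LCR at rest, 1 of old HCR exhausted and 1 of young LCR exhausted, have Hspb8 at 10.34 or higher. Old LCR rest replicate 4, with a list mean below 8, also has Hspb8 above 10.34. Among the arrays above 8, replicate 1 of exhausted old HCR and replicate 2 of resting old LCR stand apart, with low array weights (0.36 and 0.32).

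Correlations were computed for 16 pairs in all, 10 of them among Hspa1b, Dnajb1, Hsph1, Dnaja1 and Hspb1. Over deviations of the 48 arrays from their group means, Dnajb1 correlated with Dnaja1 at r = 0.74 (rho 0.59), with Hspa1b at 0.66 (rho 0.55) and with Hsph1 at 0.60 (rho 0.60). Hsph1 correlated with Dnaja1 at 0.60 (rho 0.64). Adjusted permutation p-values of these 4 were between 8e-05 and 0.00105. Each r was also computed without the 2 arrays most extreme in a single gene of the pair, which can differ between pairs. Extremes of the other gene were not considered. For these 4 pairs that r was between 0.50 and 0.65. The other 6 pairs were weaker. Hspa1b correlated with Hsph1 at 0.49, with Hspb1 at 0.47 and with Dnaja1 at 0.38, and without the 2 arrays most extreme in Hspa1b at 0.39, 0.34 and 0.31. Hspb1 correlated with Hsph1 at 0.51, with Dnaja1 at 0.43 and with Dnajb1 at 0.39. Without the 2 arrays most extreme in Hsph1, Dnaja1 and Dnajb1, in that order, r was 0.51, 0.48 and 0.27. Adjusted p-values of these 6 lay between 0.0007 and 0.0311. Cryab correlated with the slow fibre markers at r = 0.60 (rho 0.63, adjusted p = 0.000267) and Hspb1 with the same markers at 0.28 (rho 0.30, adjusted p = 0.107). In old HCR after the run replicates 3 and 4 were highest in both Dnajb1 and Dnaja1, and replicate 1 was lowest in both.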

How the data were processed

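Affymetrix Rat Gene ST 2.1 arrays, 48 in number, measured RNA of rat EDL muscle in 8 groups of 6. The deposited values are log2 intensities per probe set. RMA and oligo (no versions) stand in the submitters' processing notes, Expression Console in the series' design text, and which one made the values is not stated. RMA equalises the arrays' distributions and hides shifts shared by most genes. Arrays give no read depth: their number limits the precision.

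Of 36685 probe sets, 14824 name exactly 1 gene; 829 that name several were left out. Genes above 4.54 (the median over the whole table) on 6 or more arrays were tested. limma 3.58.1 in R 4.3.3 fitted 8 group means (40 residual and 3.77 prior degrees of freedom), with two-sided moderated tests, Benjamini-Hochberg adjustment over 9558 genes separately in 17 comparisons, and calls at adjusted p below 0.05. Changes carry standard errors (SE), group values standard deviations (SD). Correlations of deviations from group means used 1e+05 permutations within groups. Python 3.11.15 drew the figures. The code was tested on simulated data.

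Members, lists and alternatives were chosen with earlier results of these data known. Named were all members called in the average response, the 5 largest rises and falls per stratum, up to 10 members in each line, age or interaction comparison, and the extremes of each family. The lists of outside chaperone genes give up to 4 called genes each. Replicate numbers follow accession order and pair nothing.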

Additional observations from a re-analysis of the deposited data

Results flagged for a closer look

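In 88 groups of 6 arrays (11 members in 8 groups each) 4 held an array far from the other 5, past the 95% critical value of Dixon's gap test; chance alone flags about 1 group in 20. Old LCR exhausted replicate 3 was the highest of its group in Dnajb1 (7.57, with 0.636 of the range as its gap) and in Dnaja1 (10.11, 0.785). Old HCR exhausted replicate 2 was the highest in Hspb7 (10.79, 0.645), and young LCR exhausted replicate 1 in Hspb8 (10.34, 0.746).

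In 5 results the response of a member differed between groups in a test of the difference itself. Dnaja1 (0.76) and Hsph1 (0.75) rose more in HCR than in LCR, and Hsph1 did so within old rats (0.78). Bag3 (-0.43) and Hspb1 (-0.70) had a lower response in old than in young rats.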

How the results depend on the processing

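Of 102 member results none reversed its direction under 9 other settings or with any of 48 arrays left out, and 48 of the 96 past the threshold passed under every one of them. Counts of members called moved by more than 1.5 times as follows; the cause was not tested. With no filter on dim genes, or one at the 25th percentile, the counts were 1 in place of 2 for exercise in old LCR, 1 in place of 6 for age in HCR, 4 in place of 7 for age in LCR and 1 in place of 2 for age by exercise. Quantile normalization on top gave 5 in place of 10 for line at rest, 5 in place of 12 for line in old rats and 1 in place of 0 for line by exercise in young rats. Median centring gave 4 for age in LCR. Array weights gave 1 for line in young rats, 11 for age in LCR, 4 in place of 2 for line by exercise, 2 for that interaction in young and 2 in place of 1 in old rats. Trend and robust moderation gave 1 for line by exercise in young rats. Without the 3 arrays that stand apart the counts were 5 for exercise in old LCR, 1 for line in young rats, 7 for line in old rats, and 1 and 2 for line by exercise in young and old rats. Fitting only the groups compared, which leaves fewer arrays, gave 0 for exercise in old HCR and in old LCR, 4 for line in old rats, 3 for age in HCR, 1 for age in LCR, 2 for line by exercise in young and 0 in old rats. The mean of a gene's probe sets moved no count past that limit.

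With 1 array left out, the counts ran from 11 to 16 for the average response, 8 to 11 in young HCR, 0 to 2 in young LCR, 1 to 3 in old HCR and 0 to 5 in old LCR. They ran from 9 to 13 for line at rest, 0 to 1 in young and 6 to 13 in old rats, and 13 to 16 after the run. For age they ran from 8 to 13 at rest, 1 to 7 in HCR, 2 to 9 in LCR and 3 to 5 after the run. For the interactions they were 2 to 4 (line by exercise), 0 to 1 in young, 1 to 3 in old rats and 1 to 4 (age by exercise). Over all genes the split of calls in old HCR after the run was 138 higher and 163 lower, and 171 and 114 with quantile normalization on top. No paired analysis was possible because replicate numbers follow accession order. Members near background, such as Hspb9 and Dnajb13, are limited by their signal.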

Other observations

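Hspb9 and Dnajb13 only just passed the filter, with values above it on 26 and 18 of 48 arrays, and were called in no comparison. Altogether 33 of the 63 tested members were called in at least 1 of the 17 comparisons and 30 in none. The same share over all genes was not counted, so these counts show nothing particular to the members. In exhausted rats 4 of 14 genes of the unfolded protein response were lower with age and none higher, against 8.16% of all genes lower and 2.58% higher. The genes were Xbp1 (-0.32), Eif2ak3 (-0.31), Pdia3 (-0.30) and Ern1 (-0.25). The members of the endoplasmic reticulum had 1 of 8 lower in that comparison. Ddit3, which encodes CHOP, was higher in HCR at rest by 0.36. Sdf2l1 rose more in HCR than in LCR, by 0.70 (adjusted p = 0.0356).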
